A study of Mus musculus with 6 samples.

Results

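The annexins were examined in interscapular brown adipose tissue (iBAT) of 16-week-old male mice on the C57BL/6 background, 3 of the control genotype and 3 *ob/ob*, with 1 Agilent Cy3 whole-genome array per sample. In *ob/ob* mice, a nonsense change in the leptin gene removes the hormone from every tissue from birth, which leads to obesity, high blood glucose, and fatty liver, so the arrays compare lean with chronically obese animals and not an effect confined to brown fat. The change leaves leptin mRNA in place, and its level cannot check the genotype. The labels do not give the source of the control mice or say whether an array held the RNA of 1 animal or of several, so the spread between arrays may be partly technical. The members are the 10 annexin genes *Anxa1* to *Anxa9* and *Anxa11*, found through the RefSeq accession that the scanner files give for each probe. These genes were chosen by their log2 normalized signals on the same 6 arrays, with the *ob/ob*-to-control difference of each already known, so that the differences below are a description and carry no test. The 10 genes have 14 probes among the 20626 gene symbols of the array, and all 14 probes lay well above background on all 6 arrays and passed the filter on dim probes, which left 35448 probes.

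Annexins are cytosolic proteins that bind acidic phospholipids when calcium rises, through a core of conserved repeats, and so link calcium signals to the inner face of membranes. They serve in membrane repair, vesicle traffic, and the ordering of lipid domains, and some are released and act outside the cell. Annexin A1 is induced by glucocorticoids and restrains leukocyte recruitment through formyl peptide receptors, annexin A2 pairs with S100A10 beneath the plasma membrane, and annexin A5 binds the phosphatidylserine that dying cells expose. In fat, annexins are made by adipocytes and also by macrophages, endothelial cells, and fibroblasts, and in RNA from whole tissue a change in the share of a cell type cannot be told apart from a change in mRNA per cell.

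A pair of arrays stood apart from their groups, and all values were read with that in view. Over the probes tested, control 3 had a Spearman correlation of 0.915 and 0.944 with *ob/ob* 1 and 2 but 0.642 and 0.730 with the other controls, and *ob/ob* 3 had 0.858 with control 1 but 0.573 and 0.488 with the other *ob/ob* arrays. Differences are therefore also given without both arrays, which leaves 2 against 2 arrays that were kept because of their resemblance, a choice that by itself widens the separation of the groups. The signal summed over 5 brown adipocyte markers ran from 3324 to 51738 over the control arrays, against 1630.5 to 6721 over the *ob/ob* arrays, with *Ucp1*, *Cidea*, *Ppargc1a*, and *Dio2* detected on all 6 arrays and *Elovl3* on the 3 control arrays alone, and the part of this shift in the annexin values was not tested. Over 5 skeletal muscle markers the sum ran from 2621 to 33315 over the control arrays, against 344 to 22767 over the *ob/ob* arrays, with *ob/ob* 1 and 2 at 344 and 369. This sum followed *Myh4*, its brightest gene (a difference of −4.13, with overlapping groups). Of the 5 markers, 4 were below 0, while *Mylpf* differed by 1.19, with every *ob/ob* array above every control array. Across all probes, limma called 0 at an adjusted p under 0.05, which is a background of 0%, 1245 probes (3.51%) had an unadjusted p under 0.05, and the methods' t-test also called 0 after adjustment. *ob/ob* arrays lay above every control array without overlap for 3.74% of the probes tested and below for 4.19%.

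Of the 10 annexins, 8 were higher and 2 lower on average in *ob/ob* iBAT, and for 3 of them, *Anxa1*, *Anxa5*, and *Anxa6*, every *ob/ob* array lay above every control array. Beside the 3.74% of all probes tested with that order, no statement is drawn from the count of 3, since the list was made with the same contrast in view. No annexin lay below the controls without overlap, against 4.19% of all probes. The median difference over the 10 genes, each read on its brightest probe, was 0.71 log2 units, beside −0.07 over all probes tested, of which 43.6% were above 0. Without control 3 and *ob/ob* 3 the family median was −0.14, with 5 genes above 0 and 5 below, and of these 4 were apart upward (*Anxa1*, *Anxa5*, *Anxa6*, and *Anxa8*) and 5 apart downward. Under that choice 40.5% of all probes were apart upward and 32.6% downward, so that such an order is common there and nothing is read from these counts. The members are described in turn, those whose groups did not overlap first.

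**Figure D1:**
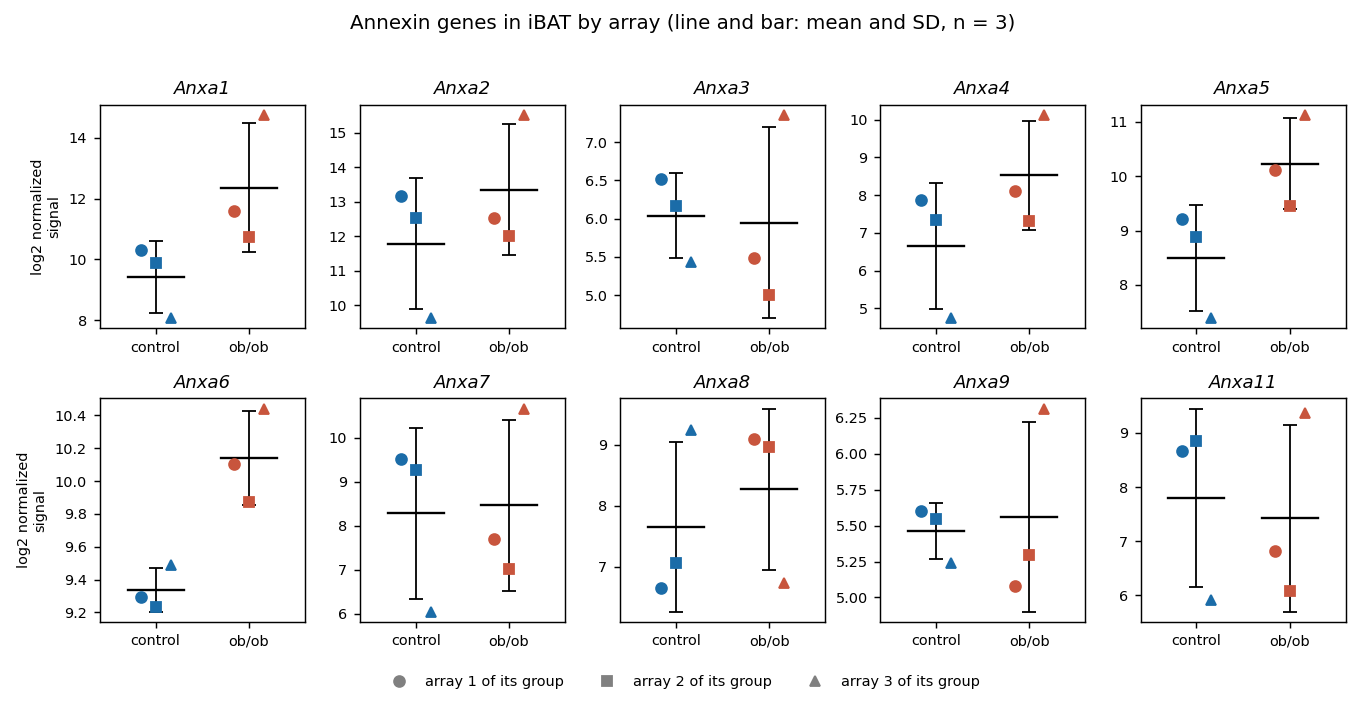
Log2 normalized signal of the 10 annexin genes (vertical axis, its own range in each panel) in 3 control arrays (blue) and 3 ob/ob arrays (red), with the marker shape giving the array number and lines and bars the mean and SD of 3 arrays. The groups are apart for Anxa1, Anxa5, and Anxa6, ob/ob 3 is the highest array for 9 of the 10 genes, and control 3 is the lowest for 6.

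*Anxa1* had the largest difference of the family. Its log2 normalized signal was 10.32, 9.86, and 8.07 on control arrays 1 to 3, in that order, against 11.60, 10.72, and 14.75 on *ob/ob* arrays 1 to 3. The *ob/ob* arrays were all above the controls, with *ob/ob* 3 far above the rest and a gap of 0.40 between *ob/ob* 2 and control 1. The means were 9.42 ± 1.19 (SD, n = 3) in control iBAT and 12.36 ± 2.12 (SD, n = 3) in *ob/ob* iBAT, a difference of 2.94 (standard error 1.15), or 7.66-fold. *ob/ob* 3 weighed most in this value, and without it the difference was 1.74. Without control 3, which read lowest, it was 2.26, and without both arrays it was 1.07. A further probe of *Anxa1* gave 9.54, 9.09, and 7.80 on the control arrays, against 10.81, 9.97, and 13.34 on those of *ob/ob* mice. Both probes thus put the arrays in the same order, and the further probe differed by 2.56 (standard error 0.95). The order of the groups depended on the scaling, since with each array scaled to its 75th percentile the *Anxa1* groups overlapped, at a difference of 2.46.

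*Anxa5*, whose protein marks exposed phosphatidylserine, read 9.22, 8.88, and 7.39 on the control arrays, against 10.11, 9.46, and 11.13 on those of *ob/ob* mice. The lowest *ob/ob* array stood 0.24 log2 units above the highest control, and again control 3 was lowest and *ob/ob* 3 highest. The means were 8.50 ± 0.97 (SD, n = 3) in control iBAT and 10.23 ± 0.84 (SD, n = 3) in *ob/ob* iBAT, a difference of 1.74 (standard error 0.66), or 3.34-fold. Without control 3 and *ob/ob* 3 the difference was 0.74, still without overlap. Scaling to the 75th percentile gave 1.78, with overlapping groups.

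*Anxa6*, an annexin with a repeated core that binds cholesterol-rich membrane, had a smaller difference and the tightest groups. It read 9.29, 9.24, and 9.49 on the control arrays, against 10.11, 9.88, and 10.44 on those of *ob/ob* mice. Here control 3 was the highest of the controls rather than the lowest, and *ob/ob* 3 stood close to the other *ob/ob* arrays. The means were 9.34 ± 0.13 (SD, n = 3) in control iBAT and 10.14 ± 0.28 (SD, n = 3) in *ob/ob* iBAT, a difference of 0.80 (standard error 0.32), or 1.74-fold. The SD within the controls was lower than that of *Anxa6* for 7.76% of all probes tested, and within the *ob/ob* arrays for 14.1%. Over 15 alternatives of processing and of left-out arrays, the *Anxa6* difference stayed between 0.65 and 0.94, including 0.73 without control 3 and *ob/ob* 3. Some of these could not move it. The other detection filters, the replicate block, and the mean of a gene's probes return the same value for *Anxa6*, which has 1 probe. In the scaling to the 75th percentile, *Anxa6* alone of the 3 genes kept groups without overlap, at a difference of 0.91. Its standard error there was 0.57, above that of *Anxa9* (0.52), so the tightness of its groups depended on the normalization.

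The start regions of the genes were read from RefSeq (GRCm38.p6) for 8 of the 10 members, and those of *Anxa3* and *Anxa6* were not analysed here. Windows of 250 bases before to 50 after the start were searched on both strands for a TATA box (TATAAA, in 13.6% of 32851 windows), a CCAAT box (CCAAT, 37.4%), a GC box (GGGCGG, 35.7%), an AP-1 site (TGANTCA, 7.81%), an E box (CACGTG, 7.15%), and a half-site of the glucocorticoid receptor (AGAACA, 19.0%). The windows of *Anxa1* and *Anxa5* are shown because these genes had separate groups, and that of *Anxa2* because it held the most kinds of match. Each is written 5′ to 3′ on the strand of its gene, and capitals mark every match.
Anxa1 promoter, chr19:20390622-20390921, strand minus: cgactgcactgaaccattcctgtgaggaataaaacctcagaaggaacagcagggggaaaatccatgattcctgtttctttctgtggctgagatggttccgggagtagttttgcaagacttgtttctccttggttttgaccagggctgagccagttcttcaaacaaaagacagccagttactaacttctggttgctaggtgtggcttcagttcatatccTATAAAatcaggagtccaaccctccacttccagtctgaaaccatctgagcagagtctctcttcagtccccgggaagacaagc
Anxa5 promoter, chr3:36475838-36476137, strand minus: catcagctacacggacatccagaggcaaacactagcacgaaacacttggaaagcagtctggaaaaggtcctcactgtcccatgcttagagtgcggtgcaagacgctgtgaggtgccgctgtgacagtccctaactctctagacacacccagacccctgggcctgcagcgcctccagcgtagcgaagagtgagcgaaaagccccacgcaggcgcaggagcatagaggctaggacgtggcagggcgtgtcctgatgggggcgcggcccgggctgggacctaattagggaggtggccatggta
Anxa2 promoter, chr9:69453433-69453732, strand plus: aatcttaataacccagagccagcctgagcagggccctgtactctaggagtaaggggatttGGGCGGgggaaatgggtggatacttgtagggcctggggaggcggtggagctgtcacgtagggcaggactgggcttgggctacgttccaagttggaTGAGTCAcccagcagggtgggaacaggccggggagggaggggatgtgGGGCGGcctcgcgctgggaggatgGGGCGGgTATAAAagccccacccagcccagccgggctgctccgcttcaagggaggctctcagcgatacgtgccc
The *Anxa1* window held a TATA box that begins 32 bases before the start and no other match. *Anxa2* held a TATA box 17 bases before the start, GC boxes beginning 190, 48, and 24 bases before it, and an AP-1 site 95 bases before it, none of which overlapped. None of these motifs was found in the *Anxa5* window, nor in those of *Anxa8* and *Anxa9*. The half-site of the glucocorticoid receptor was matched in 1 window of the family, that of a start of *Anxa4*, at 199 and 18 bases before the start. GC content was 47.3% in the *Anxa1* window, 63.7% in *Anxa2*, and 60.3% in *Anxa5*, with a median of 52.7% over all windows. The matches describe letters only, and no binding was measured.

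*Anxa2* and *Anxa4* were higher on average but overlapped. *Anxa2*, the partner of S100A10, read 13.18, 12.55, and 9.64 on the control arrays, against 12.53, 12.01, and 15.52 on those of *ob/ob* mice, so that *ob/ob* 1 and 2 lay below controls 1 and 2 and the mean difference of 1.57 (standard error 1.26) rested on the low control 3 and the high *ob/ob* 3. Without both arrays, the *Anxa2* difference had the opposite sign, −0.59. *Anxa4*, an annexin of secretory and epithelial cells, read 7.87, 7.35, and 4.74 over the controls, against 8.12, 7.32, and 10.13 over the *ob/ob* arrays. Its difference was 1.87 (standard error 1.05), and 0.11 without both arrays, where the groups also overlapped.

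*Anxa7* and *Anxa11*, relatives with long amino-terminal tails that bind the calcium sensors sorcin and ALG-2, showed another order. *Anxa7* read 9.53, 9.27, and 6.05 on the control arrays, against 7.71, 7.02, and 10.67 on those of *ob/ob* mice, a difference of 0.18 (standard error 1.29). *Anxa11* read 8.66, 8.85, and 5.91 over the controls, against 6.82, 6.08, and 9.37 over the *ob/ob* arrays, a difference of −0.38 (standard error 1.13). On both, control 1, control 2, and *ob/ob* 3 were high and the other 3 arrays low, which put 1 array of each group among those of the other. Without control 3 and *ob/ob* 3, the differences were −2.03 for *Anxa7* and −2.30 for *Anxa11*, the lowest of the family. The dimmer probes did not repeat this order. That of *Anxa11* ran from 5.66 to 6.65 with *ob/ob* 3 lowest, and that of *Anxa7* from 5.09 to 6.37 with a difference of 0.45 (standard error 0.38). The values of these genes thus depend on which probe is read.

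*Anxa8*, found mostly in epithelia, had another order of arrays than most of the family on its brightest probe. It read 6.65, 7.07, and 9.24 on the control arrays, against 9.10, 8.97, and 6.74 on those of *ob/ob* mice. Control 3, *ob/ob* 1, and *ob/ob* 2 were high, and *ob/ob* 3 was near the low controls. The difference was 0.62 (standard error 0.92), and 2.17 without control 3 and *ob/ob* 3, the highest of the family under that choice. The other *Anxa8* probe is printed as 10 spots on each array, of which 7 to 10 were free of outlier flags, and it read 6.46, 6.69, and 7.83 over the controls, against 7.32, 7.58, and 7.15 over the *ob/ob* arrays. The SD between its spots within an array was 0.0407 to 0.336 log2 units, against 0.73 between the control arrays and 0.22 between the *ob/ob* arrays. The markers of mesothelial and epithelial cells summed to 234 to 334 over the control arrays, against 164 to 329 over the *ob/ob* arrays, and their part in the *Anxa8* values was not tested.

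*Anxa3*, made by neutrophils and endothelial cells, and *Anxa9*, whose calcium-binding sites are degenerate, differed little on average. *Anxa3* read 6.52, 6.17, and 5.43 on the control arrays, against 5.48, 5.0, and 7.36 on those of *ob/ob* mice, a difference of −0.09 (standard error 0.69). *ob/ob* 1 and 2 lay near or below control 3 and *ob/ob* 3 above every control, and without control 3 and *ob/ob* 3 the *Anxa3* difference was −1.10. *Anxa9* read 5.60, 5.55, and 5.24 over the controls, against 5.08, 5.29, and 6.31 over the *ob/ob* arrays, a difference of 0.10 (standard error 0.43) that was −0.12 with scaling to the 75th percentile.

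**Figure D2:**
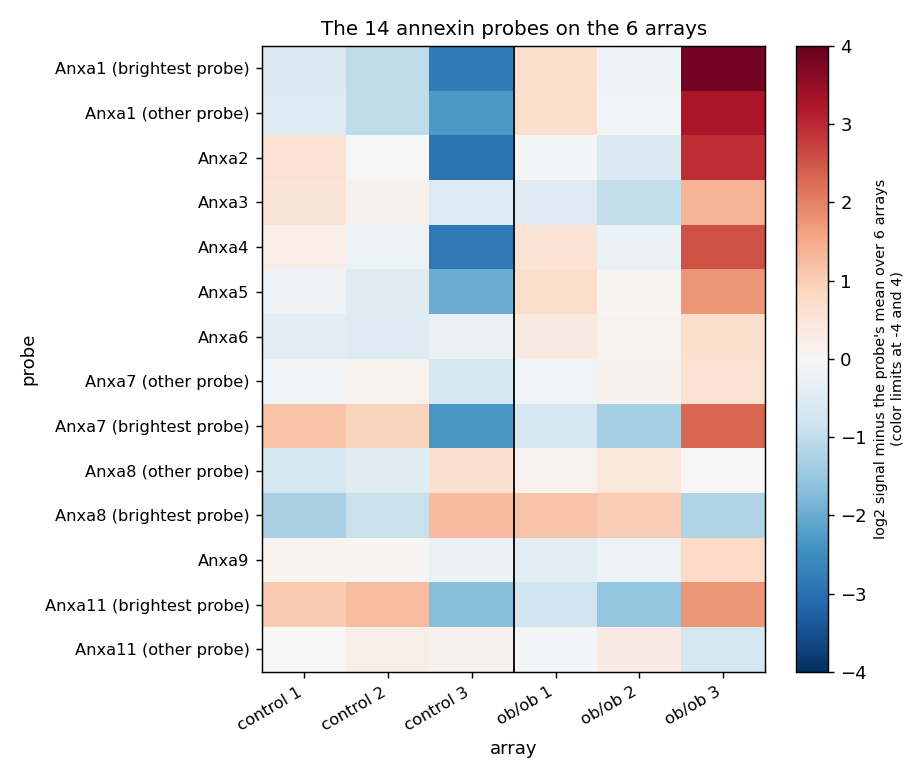
Log2 signal of each of the 14 annexin probes (rows) on the 6 arrays (columns), with the probe's mean over 6 arrays taken off; red is above and blue below that mean, and the color limits lie at −4 and 4. The 2 probes of Anxa1 share their order, the 2 probes of Anxa11 do not, and the bright Anxa8 probe is high in control 3, ob/ob 1, and ob/ob 2.

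Taken over arrays rather than genes, *ob/ob* 3 held the highest value for 9 of the 10 annexins, and *Anxa8* was the exception. Over all probes tested, 27.6% were highest on *ob/ob* 3. Control 3 held the lowest value for 6 annexins (*Anxa1*, *Anxa2*, *Anxa4*, *Anxa5*, *Anxa7*, and *Anxa11*), where 17.6% of all probes were lowest. The median SD of the annexins was 1.29 log2 units within the controls and 1.38 within the *ob/ob* arrays, compared with 0.48 and 0.72 over all probes. Control 2, *ob/ob* 2, and *ob/ob* 3 were each alone in a scan. Control 1, control 3, and *ob/ob* 1 were read in the same scan. Within it, *ob/ob* 1 stood above the mean of those controls for 6 of the 10 annexins, by 2.40 for *Anxa1*, 1.12 for *Anxa2*, 1.82 for *Anxa4*, 1.81 for *Anxa5*, 0.72 for *Anxa6*, and 1.15 for *Anxa8*. For the other 4 it stood below, with differences of −0.50 for *Anxa3*, −0.08 for *Anxa7*, −0.34 for *Anxa9*, and −0.46 for *Anxa11*. These within-scan values come from 1 *ob/ob* array and 2 controls and have no replicate on one side. Among those controls is control 3, which stood apart from its group. For *Anxa1*, *Anxa4*, *Anxa5*, and *Anxa6*, *ob/ob* 1 lay above both controls. For *Anxa2* it lay below control 1 (12.53 against 13.18), and for *Anxa8* below control 3 (9.10 against 9.24).

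Marker lists of other cells of the tissue moved with some of these arrays. The signal of 5 fibroblast and preadipocyte markers summed to 1089 to 5285 over the control arrays, against 622 to 14546 over the *ob/ob* arrays. A sum follows its brightest probe, and the log2 median of these markers was 9.96, 9.82, and 8.18 on the control arrays and 6.65, 6.52, and 8.78 for *ob/ob*, so that *ob/ob* 3 had the highest sum but not the highest median. The 4 pan-adipocyte markers summed to 10884 to 72035 over the control arrays, against 23027 to 77480.1 over the *ob/ob* arrays, with *ob/ob* 3 highest and control 3 lowest. This sum followed *Fabp4*, its brightest gene. The log2 median of these markers was 10.43, 9.94, and 8.59 on the control arrays and 8.66, 8.43, and 10.90 for *ob/ob*. *Adipoq* was also lowest on control 3 and highest on *ob/ob* 3, while *Lipe* was highest on control 3 (8.55) and lowest on *ob/ob* 3 (6.55). The 5 endothelial markers summed to 6439 to 9882 over the control arrays, against 3589 to 6333 over the *ob/ob* arrays, a sum in which *Pecam1* was the bright gene of *ob/ob* 1 and 2. Their log2 median ran from 8.10 to 11.19 over the controls and was 6.32, 5.80, and 9.80 for *ob/ob*, and *Cdh5*, *Kdr*, *Tek*, and *Emcn* were each higher on *ob/ob* 3 than on *ob/ob* 1 and 2. The 2 erythrocyte markers tested summed to 227 to 2269 over the control arrays, against 152 to 5174 over the *ob/ob* arrays, and the 5 lymphocyte markers to 635 to 753 over the control arrays, against 309 to 699.7 over the *ob/ob* arrays. The part of these cells in the annexin values was not tested.

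**Figure D3:**
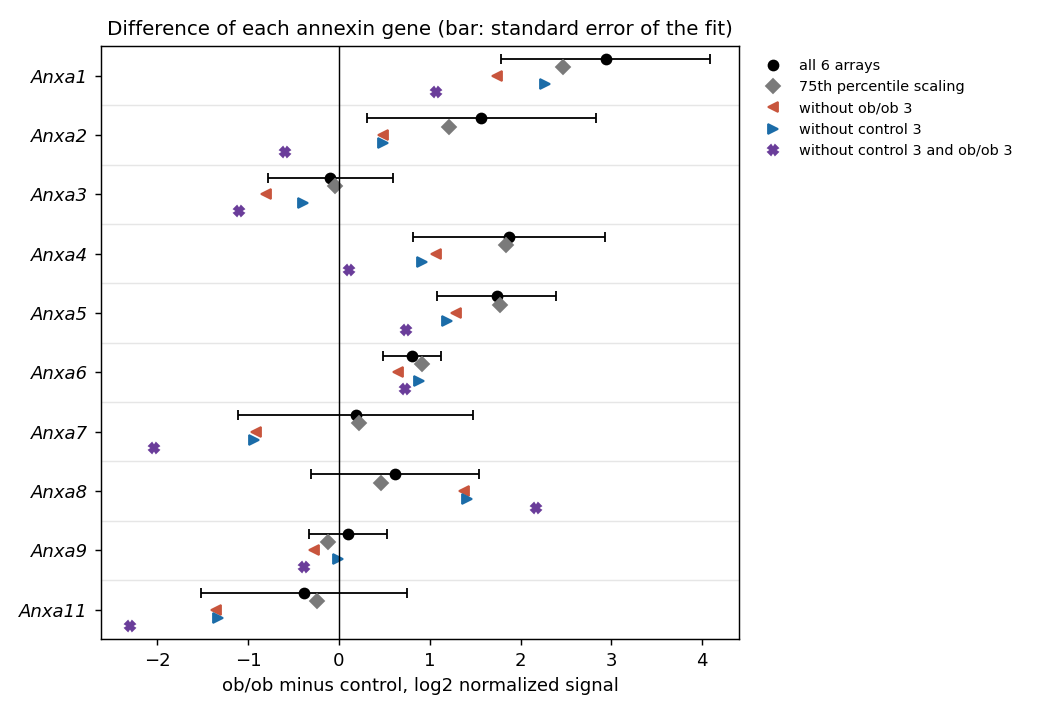
Difference of each annexin gene, ob/ob minus control, in log2 units (horizontal axis) with all 6 arrays (black, bar the standard error of the fit), after scaling to the 75th percentile, and with control 3, ob/ob 3, or both left out. Anxa6 stays between 0.65 and 0.91 under these settings, while Anxa2 and Anxa7 lie on both sides of 0.

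The genes whose profile over the 6 arrays lay nearest to that of *Anxa1* were sought among 15962 named genes detected on all arrays, by the root mean square difference of profiles centered on their own means. The nearest were *Mt2*, a metallothionein (0.40 log2 units), *Cyb5a*, cytochrome b5 (0.42), *Cobll1* (0.58), *Lox*, which cross-links collagen (0.59), and *Ctss*, a lysosomal protease of myeloid cells (0.64). All 5 were highest on *ob/ob* 3 and lowest on control 3, with differences of 2.18 to 2.65. They were picked for likeness to *Anxa1* on these same arrays, so this order is not a separate result. Among the annexins, *Anxa4* was nearest to *Anxa1* at 0.72, in place 11 of all genes, followed by *Anxa2* at 0.81 and *Anxa5* at 0.97, and *Anxa8* was farthest at 2.73. With 6 arrays in separate clusters, the measure describes likeness on these arrays only.

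Genes that act with the annexins were read from lists that the choice of members did not use, 43 genes in all, of which 41 passed the filter on dim probes. These lists were also made with earlier results of these data known, so their counts and p-values are a description and not independent support. None passed an adjusted p under 0.05 (limma, over all probes tested), beside a background of 0% of all probes. The methods' t-test also called 0 of them after adjustment. An unadjusted limma p under 0.05 was reached by 2, beside 3.51% of all probes. Of the 41 genes, 23 were above 0, with a median of 0.16, beside 43.6% and −0.07 over all probes. The groups were apart with *ob/ob* higher for 4 (*S100a6*, *S100a4*, *Fpr1*, and *Fkbp5*) and with *ob/ob* lower for 0, beside 3.74% and 4.19% of all probes. Without control 3 and *ob/ob* 3, on arrays kept for their resemblance, 23 of the genes passed an adjusted p under 0.05 (limma), 11 were apart upward, and 21 were apart downward, beside 45.9%, 40.5%, and 32.6% of all probes under the same choice. With 3 arrays against 3, an exact two-sided permutation test of a single gene cannot go below p = 0.10, which is the value for each of those 4.

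The list of S100 partners, small calcium-binding proteins that dock on annexin tails, together with the scaffold *Ahnak*, had all 5 genes above 0, with a median of 1.14 beside −0.07 over all probes, and without control 3 and *ob/ob* 3 *S100a10*, *S100a11*, and *Ahnak* were below 0. *S100a6*, a partner of annexins A2 and A11, read 9.08, 9.21, and 7.84 on the control arrays, against 10.76, 9.85, and 12.36 on those of *ob/ob* mice. The groups were apart, with a difference of 2.27 (standard error 0.74, limma adjusted p = 1.0). *S100a4*, a partner of annexin A2 found in fibroblasts and myeloid cells, read 7.94, 8.39, and 7.22 over the controls, against 9.60, 8.86, and 10.83 over the *ob/ob* arrays, a difference of 1.91 (standard error 0.60, limma adjusted p = 1.0), and 0.81 (standard error 0.44) on its dimmer probe. Without control 3 and *ob/ob* 3 these differences were 1.16 and 1.07, the same sign.

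The closest binding partners of annexins A1 and A2 overlapped between the groups. *S100a10*, the light chain of annexin A2, read 11.02, 10.85, and 8.55 on the control arrays, against 10.96, 10.15, and 12.73 on those of *ob/ob* mice, an order of arrays close to that of *Anxa2*, with a difference of 1.14 (standard error 0.92, limma adjusted p = 1.0) and −0.38 without control 3 and *ob/ob* 3. *S100a11*, the partner of annexin A1, read 6.93, 6.57, and 5.30 over the controls, against 7.05, 6.17, and 8.48 over the *ob/ob* arrays, a difference of 0.97 (standard error 0.72, limma adjusted p = 1.0) and −0.14 without both arrays. *Ahnak*, a giant scaffold bound by the annexin A2 complex, differed by 0.60 (standard error 1.28) on its brightest probe, and its 4 probes did not share a sign.

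**Figure D4:**
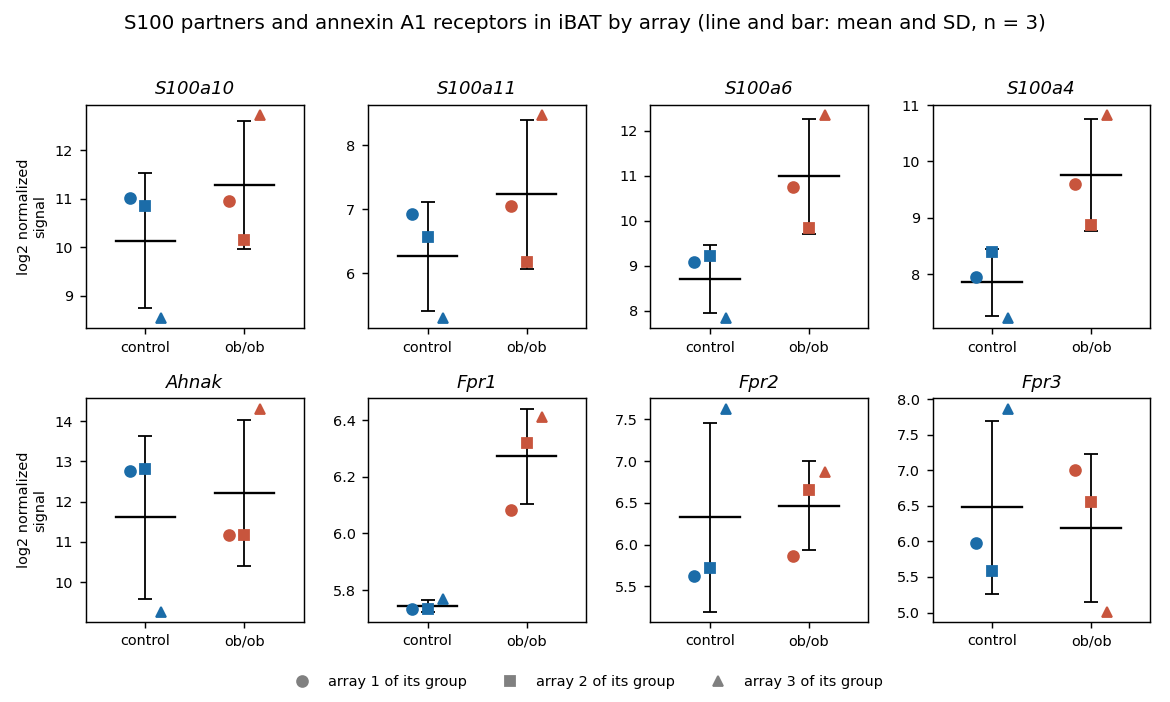
Log2 normalized signal (vertical axis, its own range in each panel) of 5 S100 partner genes and 3 formyl peptide receptor genes in 3 control arrays (blue) and 3 ob/ob arrays (red), with lines and bars for the mean and SD of 3 arrays. The groups are apart for S100a6, S100a4, and Fpr1, and S100a10 repeats the low control 3 and high ob/ob 3 seen for Anxa2.

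Of the formyl peptide receptors, through which annexin A1 signals, *Fpr1* read 5.73, 5.73, and 5.77 on the control arrays, against 6.08, 6.32, and 6.41 on those of *ob/ob* mice. The groups were apart by 0.32, with a difference of 0.53 (standard error 0.30, limma adjusted p = 1.0). With scaling to the 75th percentile, the *Fpr1* groups overlapped, at a difference of 0.27. *Fpr2* read 5.63, 5.72, and 7.63 over the controls, against 5.86, 6.66, and 6.87 over the *ob/ob* arrays, a difference of 0.14 (standard error 0.64), with control 3 the highest array. The 4 neutrophil markers tested summed to 265 to 694 over the control arrays, against 253 to 5689.6 over the *ob/ob* arrays, where *ob/ob* 3 was the array at 5689.6 and *S100a8* and *S100a9* were its bright genes, and the 5 macrophage markers tested summed to 4663 to 15294 over the control arrays, against 2908 to 5195 over the *ob/ob* arrays. The macrophage sum followed 1 bright *Itgam* probe (a difference of −1.43), which the other probes of *Itgam* did not repeat, while *Csf1r* differed by 1.12, *Mrc1* by 0.94, *Adgre1* by −0.21, and *Cd163* by −0.04. *Mrc1*, detected on 4 of 6 arrays, was highest on *ob/ob* 3 (9.98), as was the dimmer *Adgre1* probe (10.01, a difference of 1.03). The brightest probes of *Csf1r*, *Adgre1*, and *Cd163* were not highest there. *ob/ob* 3 is also the array with the highest *Anxa1*, and the part of these cells in the annexin values was not tested. *Mpo*, a neutrophil granule enzyme, was detected on 4 of 6 arrays and read 4.87 on *ob/ob* 3. *Cxcr2*, the other neutrophil marker tested, went the other way. It was lowest on *ob/ob* 3 (6.18), with a difference of −0.24.

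Of 6 glucocorticoid response genes, a list read because these hormones induce annexin A1, 4 were above 0 and 2 below. Their median difference was 0.27, in a range of −1.98 to 1.32, so the largest difference of the list was downward. *Fkbp5*, which restrains the receptor, read 8.90, 9.40, and 8.62 on the control arrays, against 9.41, 9.66, and 11.81 on those of *ob/ob* mice, a difference of 1.32 (standard error 0.69, limma adjusted p = 1.0), with the groups apart by 0.01. Without *ob/ob* 3 the *Fkbp5* difference was 0.56. *Tsc22d3*, another target of the receptor, differed by 0.10 (standard error 1.23), and *Nr3c1*, the receptor itself, by −0.62 (standard error 1.18), both with overlapping groups. Of 11 genes of membrane repair and calcium partners, 5 were above 0, with a median of −0.11. The list includes *Dysf*, dysferlin, at −1.23 (standard error 0.97), *Pdcd6*, the ALG-2 partner of annexins A7 and A11, at 0.44 (standard error 0.92), and *Sri*, sorcin, at 0.92 (standard error 1.42). The other annexins of the array, *Anxa10* and *Anxa13*, differed by −0.27 (standard error 0.55) and 0.37 (standard error 0.56, limma adjusted p = 1.0 for both).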

How the data were processed

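iBAT RNA of 3 control and 3 *ob/ob* samples was hybridized to 1-color Agilent arrays. The deposited scanner files (Agilent Feature Extraction 11.0.1.1, per the submitters' processing notes) give spot intensity corrected for background within an array, with flags (whole 0 or 1 values, per the file headers). A table of log2 values, quantile normalized by the authors in GeneSpring, was used as an alternative; its columns had a median of 6.00 each. Spots with an outlier flag were left out (153 to 227 per array), the rest averaged on the log2 scale, and 104 of 39429 probes without a value on every array dropped. No spot was saturated. Of 28684 RefSeq probes, 27228 were named through RefSeq (GRCm38.p6, names only). The signals were quantile normalized, and probes with at least 50% of spots well above background on at least 3 of 6 arrays were fitted by limma 3.58.1 under R 4.3.3, with Benjamini-Hochberg adjustment over all probes. The code was tested on simulated data. Python (version 3.11.15) and matplotlib (3.10.9) drew the figures.

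The brightest probe by mean signal stands for a gene. The members and the lists of partner and marker genes were chosen with earlier results of these data known. The rule for named genes took the members, the 5 genes nearest to the member with the largest difference, partner genes whose groups did not overlap, and *S100a10*, *S100a11*, *Fpr1*, and *Fpr2*. Other partner genes with values were chosen after these were seen. The values of 1 partner gene are not reported here. *Cd68*, *Ly6g*, and *Hbb-b1* of the marker lists had no named probe. Probe sequences were not in the files used here, and cross-hybridization was not checked. Alternatives were scaling to the 75th percentile, normexp (offset 50, on the median spot signal), the authors' values, other detection filters, the replicate number or the scan as a block, the methods' t-test, the mean of a gene's probes, and leaving out arrays. The files give no slide names. With 3 arrays a group, precision is limited by their number.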

Additional observations from a re-analysis of the deposited data

How the results depend on the processing

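The median difference of the annexins was 0.57 to 0.92 under the 14 alternatives other than leaving out control 3 and *ob/ob* 3 together, which gave −0.14 and moved 9 of the 10 members by more than their spread between arrays, *Anxa6* being the exception. That choice also gave 16259 probes and 23 partner genes past an adjusted p under 0.05 (limma), on arrays kept for their resemblance, while every other alternative run gave 0 of both. Leaving out 1 array in turn gave a family median of 0.57 to 0.92, the lowest without *ob/ob* 3. *Anxa1*, *Anxa4*, *Anxa5*, *Anxa6*, and *Anxa8* kept their direction under all 15 alternatives, with ranges of 1.07 to 3.76, 0.11 to 2.48, 0.74 to 2.13, 0.65 to 0.94, and 0.12 to 2.17. *Anxa2* changed sign under 1, *Anxa3* and *Anxa11* under 3 each, *Anxa7* under 4, and *Anxa9* under 5, and the cause was not tested. Not all of the 15 could change these values, so the counts overstate how far direction was probed. The detection filters and the replicate block return the difference of the main fit for every member. The mean of a gene's probes does so for each gene with 1 probe. Scaling to the 75th percentile moved the median of all probes from −0.07 to −0.32. With the replicate block the family median was 0.71, and 359 in place of 1245 probes had an unadjusted p under 0.05. Deviations from the group means of same-numbered arrays correlated at −0.78, −0.66, and −0.85, so equal numbers did not go with resemblance. Control 1 correlated at 0.87 with *ob/ob* 3, and control 3 at 0.83 with *ob/ob* 2. These values mirror control 3 and *ob/ob* 3, which stood apart, and cannot say whether arrays of equal number were handled together. With the scan as a block, the family median was 0.92. Control 2, *ob/ob* 2, and *ob/ob* 3 were each alone in a scan. The scan-block fit thus compared *ob/ob* 1 with controls 1 and 3 alone. Its differences are the within-scan values given above, with 1 array on the *ob/ob* side. It is counted among the 14 and 15 alternatives but is not an adjusted estimate over all arrays. Signals near background limit the dimmest genes, and 2 partner genes were not tested for that reason. The mean of a gene's probes was not run as a test of the partner genes.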

Other observations

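Plasminogen activation takes place at the annexin A2 complex on the cell surface, and no gene of that system passed an adjusted p under 0.05 (limma, 0 at an unadjusted p under 0.05). *Plau*, urokinase, read 4.46, 3.97, and 8.90 log2 units on control arrays 1 to 3, against 9.08, 8.74, and 7.28 on *ob/ob* arrays 1 to 3. Control 3 thus stood with the *ob/ob* arrays and the other controls far below. *Plaur*, the urokinase receptor, differed by 0.88 (standard error 0.59).

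Genes that recognize exposed phosphatidylserine, the ligand of annexin A5, were measured with 7 of 8 genes tested and *Timd4* detected on 1 array. Of the 7, 2 were above 0, with a median difference of −0.19. The receptor kinase *Mertk* differed by −0.28 (standard error 0.46), its relative *Axl* by 0.16 (standard error 0.43), their ligand *Gas6* by −0.79 (standard error 0.75), and the bridging protein *Mfge8* by 0.57 (standard error 0.98), all with overlapping groups. *Pla2g4a*, the phospholipase A2 that annexin A1 restrains, was detected on 2 arrays and not tested, and *Ptgs1* and *Ptgs2* differed by −0.35 and 0.41.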
